A study of Danio rerio with 20 samples.

Results

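Whole zebrafish embryos from MPNP crosses were compared with embryos from PNP crosses at 14 hours post fertilization (hpf), a stage of mid-segmentation at which somites are being added along the trunk. The comparison used 4 of the 20 libraries of the series, chosen by their labels as the 2 MPNP and the 2 PNP libraries of 14 hpf. For each library, poly(A)-selected RNA was taken from about 50 embryos pooled together, all fertilized within 15 min of each other. MPNP embryos were un-genotyped offspring of parents heterozygous for an mdm2 mutation, so about 25% of a pool is expected to be mdm2-/- and the others mdm2+/- or mdm2+/+, and the actual shares were not measured. PNP embryos came from crosses that carried no mdm2 mutation. Every embryo of both pools was in addition puma-/-, noxa-/- and p21-/-. A value of an MPNP pool is therefore an average over 3 mdm2 genotypes, and in whole embryos fewer cells of a type and less RNA per cell cannot be told apart. Whether libraries 1 and 2 of a pool came from separate crosses is not stated in the labels. In the main test, same-numbered MPNP and PNP libraries of a stage were taken as pairs. Its p-values rest only on how the MPNP minus PNP difference varied between the 2 pairs of a stage, a spread that may be technical. That spread, and with it each SE, was estimated over all 20 libraries of the series and not from the 4 of 14 hpf alone. An SE is therefore not the spread of the 2 pairs at 14 hpf, which can be wider or narrower.

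Mdm2 is a ubiquitin ligase that binds the transcription factor p53 and marks it for degradation, and p53 in turn activates mdm2, which closes a feedback loop. Without Mdm2, p53 accumulates and switches on genes that halt the cell cycle, trigger apoptosis and adjust metabolism, and embryos that lack Mdm2 die through p53. Puma and Noxa are BH3-only proteins that promote apoptosis downstream of p53, and p21 is the cyclin-dependent kinase inhibitor through which p53 arrests the cycle. The roles of genes given with the results are those known from mammals unless zebrafish is named.

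At 14 hpf most of the genes that differed between the pools were higher in MPNP embryos. The rises included p53 targets such as gadd45a (ENSDARG00000043581), phlda3, foxo3b, mdm2 and ccng1, and genes on no p53 list such as rnf14 (ENSDARG00000078683) and metrnlb. Of 14774 genes tested, 263 (1.78%) differed at an adjusted p of 0.05 (limma with the library number as a block, Benjamini-Hochberg), of which 210 (1.42%) were higher in MPNP and 53 (0.359%) lower. At an unadjusted p under 0.05 the counts were 1215 higher and 925 lower. Among the 210 genes that rose, 103 differed by at least 1 and 35 by at least 2 on the log2(TPM + 1) scale, with a median difference of 0.95. The 53 genes that fell had a median of -0.74, and 11 of them differed by -1 or less. TPM is a length-scaled share of the transcripts of a library, and the median difference over all genes tested was 0.01. Without the block 101 genes (0.684%) were called, 89 higher (0.602%) and 12 lower (0.0812%), and 100 of them were among the 263 with the same direction. With the block, leaving out either 14 hpf library of a number removes the same pair, and the difference then rests on the other pair alone. Leaving out MPNP library 1 or PNP library 1 left 132 calls, and leaving out MPNP library 2 or PNP library 2 left 25.

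The transcript of the mutated gene mdm2 itself stood at 187.31 and 285.70 TPM in MPNP libraries 1 and 2, against 86.25 and 85.83 TPM in PNP libraries 1 and 2. Both MPNP libraries lay above both PNP libraries, and the difference was 1.42 ± 0.13 (SE) on the log2 scale, with an adjusted p of 0.0012. It was 1.11 between the libraries numbered 1 and 1.72 between those numbered 2, a gap wider than the SE. Since TPM counts mutant and wild-type transcripts alike, the mdm2 level does not check the share of mdm2-/- embryos.

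Transcripts of the 3 loci that were mutant in every embryo were also higher in MPNP. The puma gene, bbc3, was at 8.57 and 16.16 TPM in MPNP against 1.78 and 1.93 TPM in PNP, a difference of 2.17 ± 0.23 with an adjusted p of 0.0017. The p21 gene, cdkn1a, was at 10.16 and 9.39 TPM in MPNP against 3.72 and 2.57 TPM in PNP, a difference of 1.39 ± 0.16 with an adjusted p of 0.0025. For both genes the groups did not overlap. The noxa gene, pmaip1, was at 6.21 and 17.31 TPM in MPNP against 2.68 and 6.57 TPM in PNP. Here MPNP library 1 lay below PNP library 2, so the groups overlapped, while each MPNP library exceeded the PNP library of its own number. The pmaip1 difference of 1.12 ± 0.22 had an adjusted p of 0.04 with the block and 1 without it.

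The p53 target lists held 108 gene IDs, of which 94 passed the filter of a mean of at least 1 TPM, and 24 of these 94 rose in MPNP and 0 fell, where 1.42% of all genes rose. Their median difference was 0.08, so most measured members moved little while a minority moved far. At an unadjusted p under 0.05, 36 were higher and 6 lower, where 1215 and 925 of all 14774 genes were. The 24 became 13 without the block, 19 without either library numbered 1, and 8 without either library numbered 2, among them sesn3, tp53inp1, mdm2, phlda3, phlda2, gadd45a (ENSDARG00000043581) and ccng1. The lists were written with earlier results of these data known, so their count is a description and not independent evidence of direction.

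Among 12 feedback genes and regulators of p53, 4 rose, among them mdm2, ccng1 and rps27l, where 1.42% of all genes rose. The level of ccng1, which encodes cyclin G1, a partner of Mdm2 in restraining p53, was 849.14 and 1206.85 TPM in MPNP against 408.34 and 420.13 TPM in PNP. It was the most abundant of the 24 genes, and its difference of 1.29 ± 0.09 had an adjusted p of 0.00044. The ribosomal protein S27-like gene rps27l was at 85.53 and 151.02 TPM in MPNP against 37.65 and 42.77 TPM in PNP, a difference of 1.48 ± 0.16 whose adjusted p was 0.0021 with the block and 0.21 without it. The groups did not overlap for either gene. The p53 relatives were not called. The factor gene tp73 was at 2.12 and 3.56 TPM in MPNP against 1.2 and 1.24 TPM in PNP, with an adjusted p of 0.12, and tp63, an epidermal regulator, was at 70.86 and 52.51 TPM in MPNP against 61.99 and 51.00 TPM in PNP, with an adjusted p of 0.59.

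**Figure D1:**
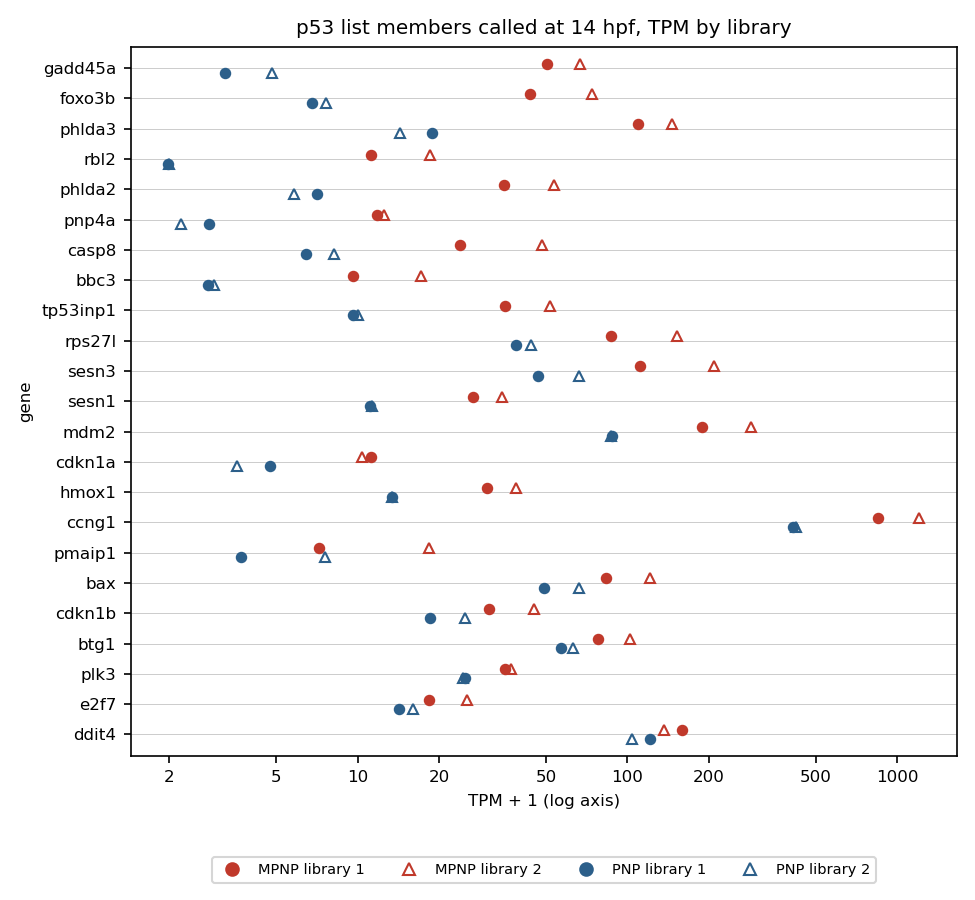
Level of 23 of the 24 p53 list members called at 14 hpf, as TPM + 1 on a log axis, with MPNP libraries in red above PNP libraries in blue, filled circles for library 1 and open triangles for library 2. The MPNP points lie right of the PNP points for every gene shown except pmaip1, where MPNP library 1 (6.21 TPM) lies below PNP library 2 (6.57 TPM).

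Genes of cell cycle arrest gave 8 rises and 0 falls among 20 measured members, with a median difference of 0.30. Over all genes tested, 1.42% rose and 0.359% fell. Among the 8 are cdkn1a and ccng1, described above. The stress sensor gadd45a (ENSDARG00000043581), which acts in growth arrest and DNA repair, was at 49.18 and 65.88 TPM in MPNP against 2.23 and 3.82 TPM in PNP. This was the largest rise of any named gene, 3.88 ± 0.29 with an adjusted p of 0.00053. The retinoblastoma family member rbl2, a repressor of E2F targets, was at 10.19 and 17.56 TPM in MPNP against 0.99 and 1.00 TPM in PNP, a difference of 2.85 ± 0.30. Both genes were well separated between the pools. Smaller rises came from the cyclin-dependent kinase inhibitor cdkn1b (ENSDARG00000029018) at 0.78 ± 0.09, the antiproliferative gene btg1 at 0.58 ± 0.07, the kinase plk3 at 0.54 ± 0.08 and the transcriptional repressor e2f7 at 0.52 ± 0.10. For cdkn1b (ENSDARG00000029018) the levels were 29.60 and 43.91 TPM in MPNP against 17.53 and 24.00 TPM in PNP. These 4 smaller rises were not called without the block, with adjusted p of 0.46, 0.16, 0.084 and 0.72 in the order given.

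Genes of stress response and growth signalling gave 9 rises and 0 falls among 31 measured members, where 1.42% of all genes rose and 0.359% fell. The pleckstrin-homology gene phlda3, an inhibitor of Akt, was at 108.84 and 145.58 TPM in MPNP against 17.87 and 13.35 TPM in PNP, a difference of 2.95 ± 0.26 with an adjusted p of 0.0009. Its relative phlda2 was at 33.74 and 52.35 TPM in MPNP against 6.09 and 4.81 TPM in PNP, a difference of 2.75 ± 0.21 with an adjusted p of 0.00053. The forkhead factor foxo3b was at 42.54 and 72.67 TPM in MPNP against 5.79 and 6.63 TPM in PNP, a difference of 2.98 ± 0.30 with an adjusted p of 0.0015. All 3 genes were several times higher in each MPNP library than in either PNP library. The p53-induced nuclear protein gene tp53inp1 rose by 2.12 ± 0.17, and the purine nucleoside phosphorylase gene pnp4a by 2.28 ± 0.23.

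Of the sestrin genes on the list, which encode stress-induced inhibitors of the growth kinase mTORC1, sesn1 and sesn3 rose and sesn2 was not called, at a difference of 0.07. The level of sesn3 was 110.20 and 208.86 TPM in MPNP against 45.46 and 65.03 TPM in PNP, and that of sesn1 was 25.77 and 33.38 TPM in MPNP against 10.12 and 10.28 TPM in PNP. The groups did not overlap for either gene. The sesn3 difference of 1.46 ± 0.09 had the smallest adjusted p of the comparison, 0.00029, yet 0.21 without the block. Library 2 was well above library 1 in both pools. The sesn1 difference of 1.44 ± 0.18 was called with the block (adjusted p = 0.0036) and without it (0.0031). The mTORC1 inhibitor gene ddit4 rose by 0.39 ± 0.06 and heme oxygenase hmox1 by 1.35 ± 0.20, with adjusted p of 1 and 0.06 without the block.

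Of 20 genes of p53-dependent death, 4 rose, namely bbc3, pmaip1, casp8 and bax, and 0 fell. Over all genes tested, 1.42% rose and 0.359% fell. The initiator caspase gene casp8 was at 22.93 and 47.21 TPM in MPNP against 5.41 and 7.14 TPM in PNP, a difference of 2.23 ± 0.26 with an adjusted p of 0.0028. The pore-forming gene bax was at 81.93 and 119.78 TPM in MPNP against 48.18 and 64.88 TPM in PNP, a difference of 0.81 ± 0.08 with an adjusted p of 0.0013. Each MPNP library was above both PNP libraries for these 2 genes, but without the block their adjusted p were 0.071 and 0.41. In a broader list of 26 apoptosis genes, 2 rose, which were casp8 and bax, and 0 fell. The repair genes among the p53 targets gave 1 rise in 13, which was rps27l, already described and also counted among the feedback genes.

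Outside the p53 lists, the ubiquitin ligase gene fbxw7, whose product targets cyclin E and Myc for degradation, was at 31.45 and 29.27 TPM in MPNP against 20.04 and 14.79 TPM in PNP. The groups did not overlap, and the difference of 0.78 ± 0.10 had an adjusted p of 0.0043, but 0.33 without the block. The 15 largest rises among abundant genes, chosen from calls whose groups did not overlap, also held several genes on no p53 list. The ligase gene rnf14 (ENSDARG00000078683) was at 30.22 and 64.22 TPM in MPNP against 3.95 and 4.97 TPM in PNP, a difference of 3.05 ± 0.33. The secreted-factor gene metrnlb, a relative of meteorin, was at 42.81 and 42.70 TPM in MPNP against 6.56 and 2.74 TPM in PNP, a difference of 3.04 ± 0.24. Both genes lay far above PNP in each MPNP library. The carboxypeptidase gene cpn1 (ENSDARG00000096720) was at 7.75 and 10.55 TPM in MPNP and was listed at 0 in PNP library 1 and at 1.34 TPM in PNP library 2. The peptidase gene ace, which encodes angiotensin-converting enzyme, rose by 2.36 ± 0.23, the leukotriene receptor gene ltb4r by 2.34 ± 0.24, sec14l8, of the SEC14-like lipid-binding family, by 2.68 ± 0.30, and the zinc-finger factor gene sp6 by 2.30 ± 0.22. All of the 15 kept their call without the block except cpn1 (ENSDARG00000096720), at an adjusted p of 0.057, and all 15 kept it without either library numbered 1. Without either library numbered 2, 5 kept it, namely metrnlb, phlda3, phlda2, gadd45a (ENSDARG00000043581) and cpn1 (ENSDARG00000096720).

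**Figure D2:**
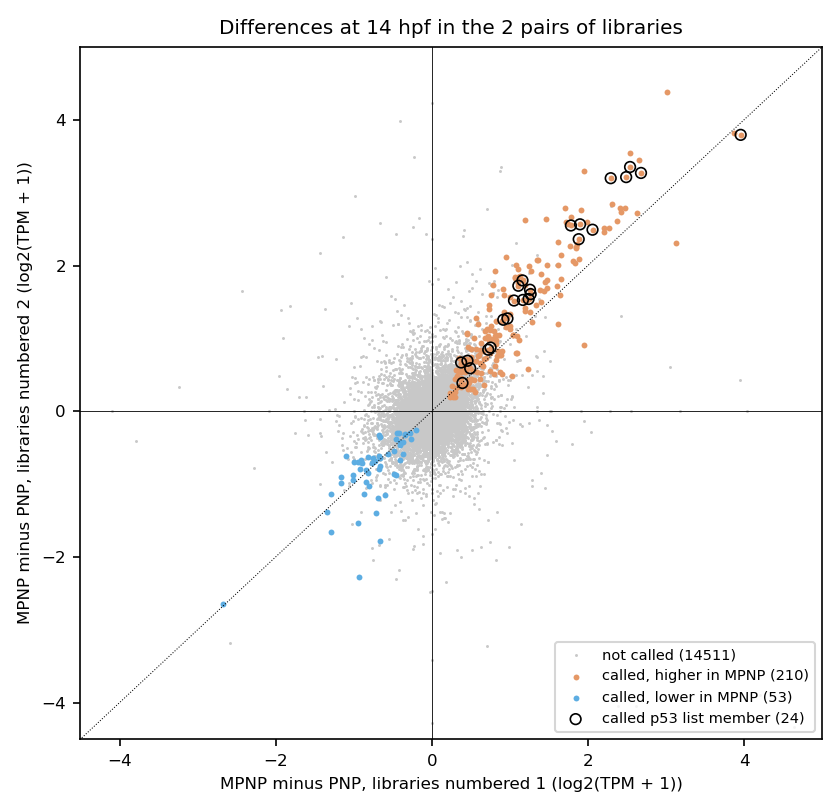
Each point is a gene, with its MPNP minus PNP difference in log2(TPM + 1) for the libraries numbered 1 on the horizontal axis and for those numbered 2 on the vertical axis, and with called genes coloured, called p53 list members circled and equality dotted (4 genes lie outside the axes). Of the 210 genes called higher, 160 lie above the dotted line.

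The rises were larger between the libraries numbered 2 than between those numbered 1. Of the 210 genes that rose, 160 had the larger difference in pair 2, against 43.6% of all genes tested. Among the 24 p53 list members this held for 22, and 22 were higher in MPNP library 2 than in MPNP library 1, while 17 were higher in PNP library 2 than in PNP library 1. The share of all genes higher in library 2 was not computed for either pool, so these library counts are a description. Of the 53 genes that fell, 27 had a pair 2 difference above that of pair 1. For mdm2 the differences were 1.11 in pair 1 and 1.72 in pair 2, and for ccng1 they were 1.05 and 1.52. The exception at the top of the list was gadd45a (ENSDARG00000043581), with 3.96 in pair 1 and 3.79 in pair 2. The share of mdm2-/- embryos in each MPNP pool was not measured, and its part in this gap was not tested. Across all genes tested, the differences of the 2 pairs had a correlation of 0.332, given as a description over genes that share 4 libraries.

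Stress and immediate early genes gave 5 rises and 0 falls among 41 measured members, where 1.42% of all genes rose and 0.359% fell. The AP-1 subunit gene fos was at 20.91 and 28.15 TPM in MPNP against 3.12 and 3.23 TPM in PNP, a difference of 2.60 ± 0.25 with an adjusted p of 0.0012. Its partner gene jun was at 28.77 and 32.46 TPM in MPNP against 17.12 and 15.34 TPM in PNP, a difference of 0.88 ± 0.10 with an adjusted p of 0.0032. The groups did not overlap for fos or jun, and both kept their call without the block. The growth regulator gene myc (ENSDARG00000007241) rose by 0.57 ± 0.11, hmox1 as given above, and hsp90b1, a chaperone of the endoplasmic reticulum, by 0.65 ± 0.09. Without the block the adjusted p of myc (ENSDARG00000007241) was 0.15 and that of hsp90b1 was 0.22. The related chaperone gene hspa5 was at 215.84 and 270.66 TPM in MPNP against 175.21 and 209.40 TPM in PNP, with an adjusted p of 0.053. Of 37 ribosome biogenesis genes 1 rose, the RNA polymerase I factor gene rrn3, by 0.70 ± 0.14, and 0 fell, a share near the 1.42% of all genes that rose. It was not called without the block (adjusted p = 0.55).

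Interferon and antigen presentation genes were mostly too low to test, with 16 of 40 past the filter. Of the 16, 3 rose and 0 fell, where 1.42% and 0.359% of all genes did. The filter averaged over MPNP and PNP libraries alike, so a gene low in PNP could pass through its MPNP values. The 3 genes were under 1 TPM in both PNP libraries, so their share of the list is a description and not support. The ubiquitin-like modifier gene isg15 was at 5.33 and 8.26 TPM in MPNP against 0.37 and 0.69 TPM in PNP, a difference of 2.33 ± 0.22 with an adjusted p of 0.0012. The interferon-induced gene ifit8 was at 4.35 and 10.15 TPM in MPNP against 0.38 and 0.13 TPM in PNP, a difference of 2.63 ± 0.41 with an adjusted p of 0.014. With no filter on low values, ifit8 was not called. The chemokine receptor gene cxcr3 was at 2.44 and 5.13 TPM in MPNP against 0.12 and 0.52 TPM in PNP, a difference of 1.82 ± 0.34 with an adjusted p of 0.032, but 0.078 without the block. All 3 were low in PNP and separated from it in both MPNP libraries. The antigen presentation gene b2m was at 8.42 and 18.17 TPM in MPNP against 4.25 and 5.03 TPM in PNP, and its adjusted p of 0.11 did not pass.

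The genes that fell were fewer and changed less. The largest fall of a gene with a symbol and at least 5 TPM in PNP was that of timm23b, which encodes a subunit of the protein import channel of the mitochondrial inner membrane. It was at 2.37 and 2.52 TPM in MPNP against 7.56 and 8.19 TPM in PNP, a difference of -1.36 ± 0.17 with an adjusted p of 0.0035. At 8 hpf the timm23b difference was 0.72, with an adjusted p of 0.048. Its paralog timm23a, looked up after these values were seen, was more abundant and not called. The level of timm23a was 71.65 and 113.5 TPM in MPNP against 74.19 and 114.23 TPM in PNP, a difference of -0.03 with an adjusted p of 0.92. The secreted matrix gene egfl6 followed at 11.42 and 8.49 TPM in MPNP against 22.88 and 26.41 TPM in PNP, a difference of -1.24 ± 0.19 with an adjusted p of 0.012. The myelin protein gene pmp22a was at 5.48 and 6.71 TPM in MPNP against 14.91 and 15.88 TPM in PNP, a difference of -1.21 ± 0.21 with an adjusted p of 0.026. The MPNP libraries lay below both PNP libraries for timm23b, egfl6 and pmp22a, as was required of each of the 15 largest falls named here. Also among the 15 largest falls were hemk1, a methyltransferase gene, at -1.07 ± 0.18, the mitochondrial microprotein gene stmp1 at -0.92 ± 0.14, the actin gene actc1 at -0.85 ± 0.15, the glycolate oxidase gene hao1 at -0.83 ± 0.16, the complement factor H-like genes cfhl5 and cfhl4 at -0.82 ± 0.12 and -0.81 ± 0.16, the zinc-finger gene znf1109 at -0.82 ± 0.15, and kcnip3b, of the potassium channel-interacting family, at -0.78 ± 0.14. Of the 15, 6 were called without the block, namely gfi1aa, egfl6, pcolce2 (ENSDARG00000055575), col7a1l (ENSDARG00000069692), twist1b and znf1109. Without either library numbered 1 only egfl6 was called, and without either library numbered 2 none of the 15 was.

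**Figure D3:**
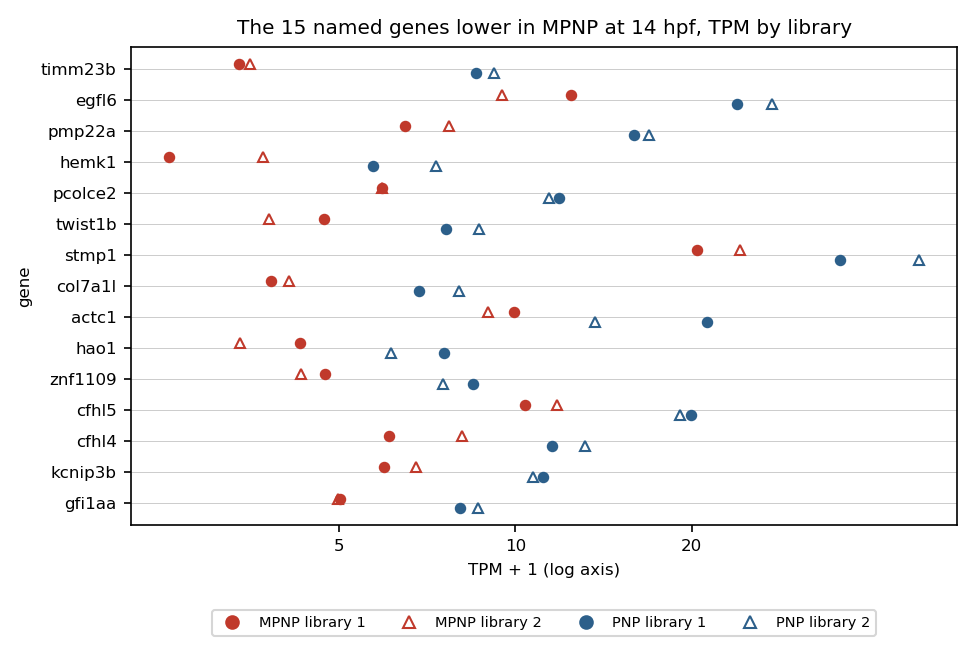
Level of each of the 15 named genes lower in MPNP at 14 hpf, as TPM + 1 on a log axis, with MPNP libraries in red above PNP libraries in blue, filled circles for library 1 and open triangles for library 2. For each gene the MPNP points lie left of the PNP points, which was a condition for choosing it. The genes run from timm23b at 2.37 and 2.52 TPM in MPNP against 7.56 and 8.19 TPM in PNP down to gfi1aa at 4.02 and 3.98 TPM in MPNP against 7.05 and 7.62 TPM in PNP.

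Lower neural crest, blood and matrix transcripts at this stage rested on few genes. The crest list had 36 measured members of 51, and 1 fell and 0 rose, where 0.359% of all genes fell, with a median difference of -0.09. The crest and mesoderm regulator twist1b was at 3.72 and 2.80 TPM in MPNP against 6.61 and 7.66 TPM in PNP, a difference of -0.94 ± 0.18 with an adjusted p of 0.034. The MPNP libraries were both below the PNP libraries. Counting twist1b, 11 of the 36 were lower in both MPNP libraries than in both PNP libraries and 6 were higher in both, where 12.6% and 13.5% of all genes were. This was not particular to crest. The same counts were 11 lower and 1 higher of 29 for neurogenesis, and 12 and 1 of 28 for heart, kidney and lateral plate. They were 16 and 4 of 58 for somite and muscle, and 4 and 5 of 47 for epidermis. Examples that did not pass the test were sox10, at 11.12 and 10.71 TPM in MPNP against 14.69 and 16.49 TPM in PNP (adjusted p = 0.16), foxd3, at 36.11 and 38.45 TPM in MPNP against 42.00 and 46.25 TPM in PNP (adjusted p = 0.25), and snai1b, at 16.53 and 22.30 TPM in MPNP against 23.54 and 27.86 TPM in PNP (adjusted p = 0.097). In the other direction, tfap2c, a factor of the neural plate border and epidermis, was at 105.22 and 100.07 TPM in MPNP against 83.75 and 84.53 TPM in PNP (adjusted p = 0.078), and the repressor gene prdm1 was at 41.16 and 40.79 TPM in MPNP against 34.66 and 33.60 TPM in PNP (adjusted p = 0.065). At an unadjusted p under 0.05 the list held 3 higher and 5 lower members, where 1215 and 925 of all 14774 genes were.

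The primitive blood list had 32 measured members of 51, and 1 fell and 0 rose, where 0.359% and 1.42% of all genes did. The median difference was -0.04. At an unadjusted p under 0.05, 1 was higher and 3 lower, where 1215 and 925 of all 14774 genes were. The repressor gene gfi1aa, needed for the first wave of erythroid cells in zebrafish, was at 4.02 and 3.98 TPM in MPNP against 7.05 and 7.62 TPM in PNP, a difference of -0.74 ± 0.15 with an adjusted p of 0.042. The groups did not overlap. The erythroid master regulator gata1a was at 0.93 and 1.63 TPM in MPNP against 2.6 and 2.1 TPM in PNP, again lower in both MPNP libraries, with an adjusted p of 0.17. In the other direction, lcp1 was at 47.96 and 65.98 TPM in MPNP against 40.22 and 52.06 TPM in PNP (adjusted p = 0.17), with overlap. The gene gata2 was at 76.99 and 70.62 TPM in MPNP against 66.27 and 66.96 TPM in PNP (adjusted p = 0.4). Of the 32 members, 12 had a positive difference and 20 a negative one. In endothelium, the measured list of 23 gave 1 rise and 0 falls, where 1.42% of all genes rose. The gene was aqp8, a water channel, at 4.59 and 7.59 TPM in MPNP against 2.19 and 1.27 TPM in PNP.

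The 2 matrix lists together had 106 measured members of 170, of which 3 fell and 1 rose, where 0.359% and 1.42% of all genes did. The median difference was -0.05. At an unadjusted p under 0.05, 9 were higher and 12 lower, where 1215 and 925 of all 14774 genes were. Beside egfl6, the falls were those of pcolce2 (ENSDARG00000055575), an enhancer of procollagen processing, and thbs4 (ENSDARG00000020072), a thrombospondin of tendon and muscle attachment. The level of pcolce2 (ENSDARG00000055575) was 4.92 and 4.92 TPM in MPNP against 10.88 and 10.41 TPM in PNP, a difference of -0.98 ± 0.15 with an adjusted p of 0.014. That of thbs4 (ENSDARG00000020072) was 1.73 and 1.77 TPM in MPNP against 3.63 and 3.55 TPM in PNP, a difference of -0.74 ± 0.15 with an adjusted p of 0.041. The replicates of each pool lay close together and the pools were separated. The gene that rose was plod3, a lysyl hydroxylase of collagen, at 92.97 and 99.30 TPM in MPNP against 67.09 and 73.54 TPM in PNP, a difference of 0.45 ± 0.09 that was not called without the block (adjusted p = 0.35). A collagen VII-like gene, col7a1l (ENSDARG00000069692), which was on neither matrix list, was among the largest falls at -0.90 ± 0.14. Without library 2 of either pool, 0 crest, blood or matrix list members were called lower, and without library 1 of either pool the counts were 0, 0 and 1.

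**Figure D4:**
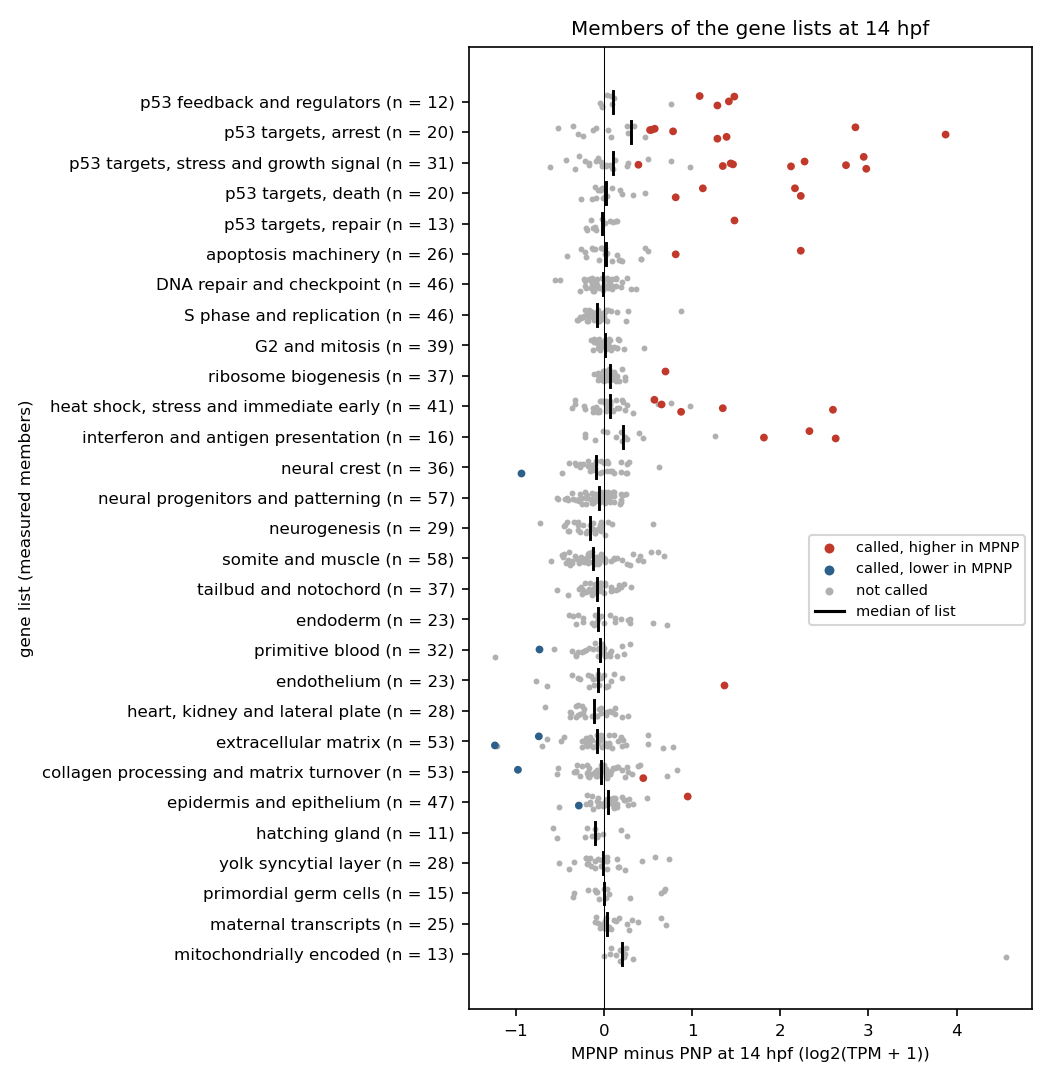
Each dot is a measured member of a gene list, placed by its MPNP minus PNP difference at 14 hpf in log2(TPM + 1), in red or blue where it was called higher or lower and in grey where it was not, with a black bar at the median of the list. Called members cluster in the p53, stress and interferon lists to the right of 0, while the crest, blood and matrix lists hold 1 or 2 blue dots each. The collagen processing list also holds 1 red dot, as do the ribosome biogenesis, endothelium and epidermis lists, and the epidermis list 1 blue dot.

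Other tissues and the cell cycle gave few or no calls. Of 47 epidermal genes 1 rose and 1 fell, where 1.42% and 0.359% of all genes did. The gene foxi1, a regulator of ionocytes and placodes, rose by 0.95 ± 0.11. The claudin gene cldne fell, with a difference of -0.28 ± 0.05 with an adjusted p of 0.015. Neither was called without the block, at an adjusted p of 0.053 for foxi1 and 0.26 for cldne. The levels of foxi1 were 36.76 and 48.45 TPM in MPNP against 19.80 and 23.04 TPM in PNP, with no overlap. None of the 58 somite and muscle genes on the list was called. At an unadjusted p under 0.05, 15 were lower and 2 higher, where 925 and 1215 of all 14774 genes were, and their median was -0.13. The muscle actin gene actc1, which was not on that list, was called lower, at -0.85 ± 0.15 with an adjusted p of 0.023. Without the block its adjusted p was 0.13. The myogenic factor gene myf5 was at 77.57 and 60.34 TPM in MPNP against 103.07 and 78.84 TPM in PNP, with an adjusted p of 0.12. Of 46 replication genes 0 were called. At an unadjusted p under 0.05, 11 were lower and 2 higher, where 925 and 1215 of all 14774 genes were. The helicase subunit mcm5 was at 217.83 and 209.25 TPM in MPNP against 245.30 and 257.64 TPM in PNP (adjusted p = 0.088). Of 29 neurogenesis genes 0 were called, with a median of -0.16. At an unadjusted p under 0.05, 6 were lower and 1 higher, where 925 and 1215 of all 14774 genes were. Lists of DNA repair (46 measured), mitosis (39), neural progenitors (57), tailbud and notochord (37), endoderm (23), heart with kidney and lateral plate (28), hatching gland (11), yolk syncytial layer (28), germ cells (15), genes encoded by mitochondrial DNA (13) and maternal transcripts (25) also had 0 calls by limma. At an unadjusted p under 0.05, neural progenitors had 6 lower and 0 higher, and heart with kidney and lateral plate 5 and 0. Mitosis had 0 lower and 3 higher, and maternal transcripts 0 and 4.

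The libraries were whole-embryo libraries by their markers, with keratin krt4 between 3405.77 and 3804.29 TPM in MPNP and between 3489.09 and 3560.31 TPM in PNP. Markers of notochord (noto), muscle (myod1), neurons (elavl3), germ cells (nanos3), erythroid cells (gata1a) and yolk (apoa1b) were all above 0. The globin gene hbae1.3 of the blood list was at 4.55 TPM in PNP library 2 and was listed at 0 in the other libraries of 14 hpf. The summed level of the crest list was 1243 and 1305.9 TPM in MPNP against 1249.9 and 1358.1 TPM in PNP. That of the blood list was 761 and 812 TPM in MPNP against 746 and 825 TPM in PNP. These sums overlapped between the pools. As a measure of developmental stage, the MPNP difference was projected on the change of PNP embryos per hour between 12 and 16 hpf. This gave an offset of -0.357 h in pair 1 and -0.127 h in pair 2. A negative value has the sign of a lag of MPNP behind PNP, which was not tested. The embryos of a library were themselves fertilized over up to 15 min. After the mean offset of -0.242 h was removed, 237 genes were called, 195 higher and 42 lower, and the p53 lists still gave 24. The counts of crest and blood members called lower became 0 and 0, and the matrix count became 2. The difference of twist1b was then -0.80 (adjusted p = 0.067), against -0.94 before, that of gfi1aa -0.52 (0.14) against -0.74, and that of thbs4 (ENSDARG00000020072) -0.50 (0.16) against -0.74.

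Most rises at 14 hpf, but not most falls, were also called at 16 hpf. They were 167 of the 210 genes higher in MPNP and 17 of the 53 lower. Of all 14774 genes, 379 were called higher and 137 lower at 16 hpf. Of the 263 calls, 184 were also called in the same direction at 16 hpf, which is 70% of the 14 hpf calls and 35.7% of the 516 calls at 16 hpf (3.49% of genes tested). At 12 hpf the shared calls were 101, or 38.4% of the 14 hpf calls and 49.5% of the 204 calls of that stage (1.38%). The calls of all stages use the same estimate of spread for a gene, so these overlaps do not come from independent tests. The genes that rose at 14 hpf had median differences of 0.26, 0.36, 0.59, 0.95 and 1.06 at 8, 10, 12, 14 and 16 hpf, and those that fell had -0.29, -0.31, -0.40, -0.74 and -0.38, where the 14 hpf value is the stage at which they were chosen. The p53 lists gave 17, 24 and 29 higher members at 12, 14 and 16 hpf, where 0.772%, 1.42% and 2.57% of all genes were higher. For mdm2 the differences were 0.16, 0.44, 0.88, 1.42 and 1.49 over the 5 stages, and for gadd45a (ENSDARG00000043581) they were 1.87, 2.45, 2.41, 3.88 and 3.71. Those of metrnlb were 0.80, 1.43, 2.31, 3.04 and 1.73. Those of twist1b were 0.27, 0.07, -0.21, -0.94 and -0.06.

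**Figure D5:**
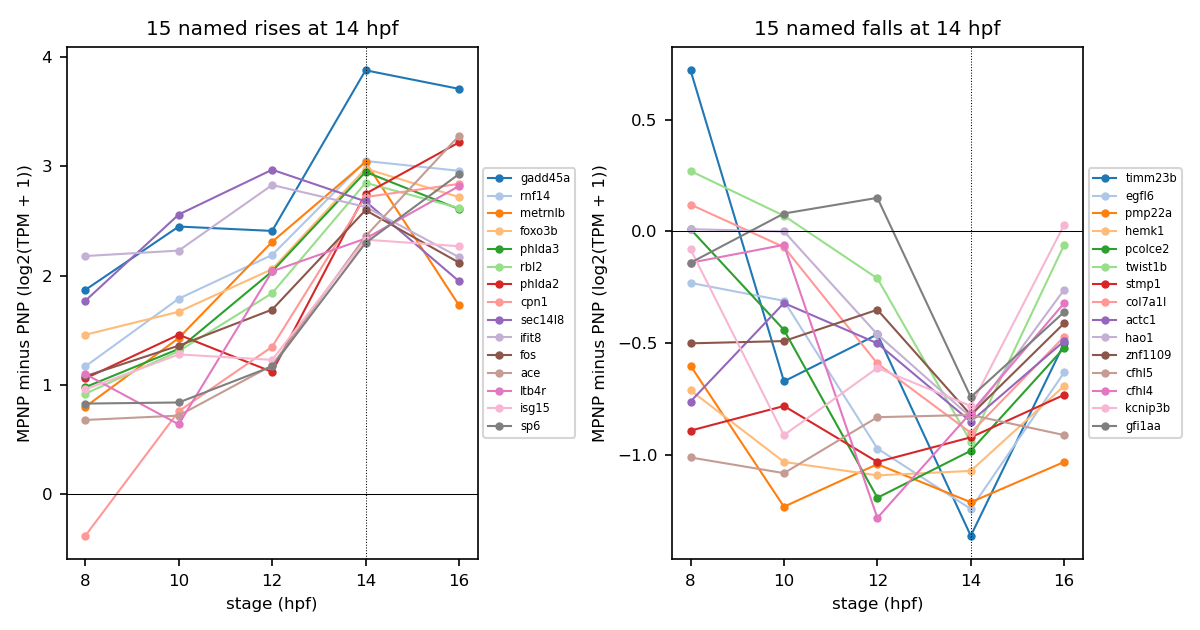
MPNP minus PNP difference in log2(TPM + 1) at 8, 10, 12, 14 and 16 hpf for the 15 named rises (left) and the 15 named falls (right), with 14 hpf, the stage by which they were chosen, dotted. Of the rises, gadd45a (ENSDARG00000043581) is highest at 14 hpf at 3.88, and of the falls, timm23b is lowest at 14 hpf at -1.36.

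No gene was shown to differ at 14 hpf from the rest of the series. The test of the 14 hpf difference minus the mean of the other 4 stages called 0 genes by limma, with 1335 at an unadjusted p under 0.05 and a smallest adjusted p of 0.31, and 0 with 413 at an unadjusted p under 0.05 without the block. It called 1 without MPNP library 1 or PNP library 1. Against 12 hpf alone it called 0, with 869 at an unadjusted p under 0.05 and a smallest adjusted p of 0.49, and 1 without MPNP library 2 or PNP library 2. The 16 hpf difference minus the 14 hpf difference called 0, with 1026 at an unadjusted p under 0.05 and a smallest adjusted p of 0.087. Among genes named above, sesn3 exceeded its mean at the other stages by 0.64 ± 0.10, metrnlb by 1.47 ± 0.27, and ccng1 by 0.56 ± 0.10, each with an adjusted p of 0.31, and timm23b differed from its mean there by -1.14 ± 0.18 with an adjusted p of 0.31. These 4 genes were picked out after their values were seen.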

How the data were processed

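The authors deposited TPM values for 32057 Ensembl gene IDs, rounded to 2 decimals. The submitters' processing notes name build GRCz11, R 4.3.3, DESeq2 1.42.1, HTSeq 0.12.3, RSEM 1.3.3 and STAR 2.7.3a; the tool behind the table was not given in the sources used here. Read depth cannot be recovered from TPM, and values carry no counting interval. The table has 4 columns without values, which were not used.

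Values were analysed as log2(TPM + 1), so changes of low genes are understated. Genes with a mean of at least 1 TPM over 20 libraries (14774) were fitted with limma 3.58.1 (R 4.3.3, empirical Bayes, intensity trend). All 20 libraries entered, with the library number within stage as a block and 5 residual degrees of freedom. P-values are 2-sided and adjusted by Benjamini-Hochberg over all genes, with a threshold of 0.05, and SE is limma's. The script was tested on simulated data. The comparison was defined with libraries paired by number, and the labels give both pools the same numbers without stating their meaning. Same-numbered MPNP and PNP libraries also deviated together at every stage, with correlations across genes between 0.485 and 0.615. These correlations come from the values that were then tested, so they are not independent support for the block.

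A gene name table matched 28988 of the 32057 IDs and 14301 of the 14774 tested. Paralog letters are often missing there, so some symbols cover more than 1 paralog, and where several IDs carry the same symbol the ID is printed beside it. Named were the mutated and other key p53 genes, the 15 largest changes in each direction among calls with at least 5 TPM in the higher pool and no overlap, and up to 6 members per list with the smallest p. The 47 called genes with a clone-derived name or no symbol were counted, not named. The values of 2 genes are not reported here, though they stay in the counts. Members and lists were chosen with earlier results of these data known. The alternatives were another pseudocount, filter, scaling, trend, block or set of libraries, and removal of the developmental offset. Sequences and coordinates were not used here.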

Additional observations from a re-analysis of the deposited data

How the results depend on the processing

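Genes called, higher and lower at 14 hpf numbered 101, 89 and 12 with no replicate block, against 263, 210 and 53 with the library number as a block. They were 0, 0 and 0 when only the 4 libraries of 14 hpf were fitted with no replicate block, where 563 genes had an unadjusted p under 0.05 and the smallest adjusted p was 0.07. Leaving out each 14 hpf library in turn gave 25 to 132 called, 23 to 119 higher and 2 to 13 lower. Because of the block, either library of a number gives the same 14 hpf difference when left out. Lower genes numbered 34 with a pseudocount of 0.1, 33 with no filter and 33 with only the 12, 14 and 16 hpf libraries. The p53 lists gave 24 higher members with the block, 13 without it, 0 with only the 14 hpf libraries, 8 to 19 when a library was left out and 21 to 24 under every other alternative. Crest and blood members called lower, 1 and 1 with the block, were 0 and 0 with a pseudocount of 0.1, with no filter, with a filter of 5 TPM, with only the 12, 14 and 16 hpf libraries, with only the 14 hpf libraries, with the offset removed, and with any 14 hpf library left out; crest was 2 with a pseudocount of 5. With the filter of 5 TPM only 46 of the 60 named calls were tested, so a count there can drop because a gene was removed. Matrix members called lower, 3 with the block, were 1 with a pseudocount of 0.1, 0 with only the 14 hpf libraries and 0 to 1 with a library left out. The difference from the other stages gave 1 gene with no filter and 0 to 1 with a library left out, as did that from 12 hpf, and the 16 minus 14 hpf difference gave 6 with a pseudocount of 5. Of 60 named calls, 0 held with only the 14 hpf libraries, 10 without either library numbered 2, 34 without either numbered 1, 31 with no replicate block, 54 with the offset removed, 59 after median-of-ratios rescaling, and 0 reversed under any alternative. The causes of these changes were not tested. The fits that leave libraries out also have fewer samples and degrees of freedom. TPM holds no depth, so what low genes could show at this depth is unknown.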

Other observations

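The next 7 genes passed the test, were all higher in MPNP and were chosen after their values were seen. They do not represent the 263 calls, of which 100 were also called without the block. The autophagy kinase genes ulk1 and ulk2 were at 25.32 and 28.84 TPM and at 5.84 and 10.11 TPM in MPNP, against 13.85 and 14.70 TPM and 1.46 and 2.2 TPM in PNP, with differences of 0.88 ± 0.08 and 1.64 ± 0.20. The thioredoxin inhibitor gene txnip was at 144.75 and 174.42 TPM in MPNP against 82.69 and 80.92 TPM in PNP, and the stress-response gene nupr1a at 250.15 and 332.56 TPM in MPNP against 115.46 and 97.41 TPM in PNP. The methionine adenosyltransferase gene mat2al was at 90.27 and 126.84 TPM in MPNP against 24.52 and 30.06 TPM in PNP. A further sestrin gene, sesn4, was at 24.85 and 28.48 TPM in MPNP against 8.31 and 8.14 TPM in PNP. The cell cycle inhibitor locus cdkn2a/b was at 1.29 and 5.19 TPM in MPNP and was listed at 0 in both PNP libraries. All 7 were also called without the block, with adjusted p between 0.00028 and 0.024.

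The mitochondrially encoded gene mt-atp8 was at 560.29 TPM in MPNP library 2 and was listed at 0 in MPNP library 1 and in both PNP libraries.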
